A study of Homo sapiens with 6 samples.

Results

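ZNF genes encode zinc finger proteins, and the 116 studied here are those that gave a clear signal in A549 cells, an established human lung adenocarcinoma line. A gene was taken where its single annotated symbol was ZNF followed only by digits and its brightest probe set had a mean of at least 6.0 log2 units over all 6 arrays. Of 451 ZNF genes measured, 116 met this rule (25.7%), while 335 lay below it. Of the remaining genes of the table, 8128 reached 6.0, or 46.0% of them. The members were thus chosen by their mean signal over both groups, so their brightness is a description and supports nothing here. The rule itself does not use the difference between the groups, but it was set with earlier results of these data known.

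Total RNA was compared between 3 arrays titled sh_LINC00525, in which the long noncoding RNA LINC00525 was silenced, and 3 arrays titled sh_ctrl, a scrambled control. They are called knockdown and control arrays below. The treatment text describes small interfering RNA whereas the titles carry the prefix sh, and neither a treatment time nor separate cultures are stated, so p-values reflect the scatter among these 6 samples alone, and that scatter may be technical. For knockdown replicate 2 the genotype field reads LINC00526 and for replicate 3 LINC00527, although titles and design text give LINC00525 throughout. On knockdown replicate 1 the median ZNF member stood at -0.035 log2 units relative to each gene's mean over all 6 arrays. The median of the other genes at or above 6.0 stood at -0.017 on that array.

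Most human ZNF proteins of the C2H2 kind read DNA through a row of fingers, each folded around a zinc ion. Many also carry a KRAB domain, which recruits the scaffold protein TRIM28 and, through it, enzymes that lay down repressive chromatin, above all on transposable elements and on other ZNF genes. Other members without KRAB are activators, splicing or spindle proteins, or ubiquitin ligases, so the family shares a fold and a name rather than one task. Most KRAB genes lie in clusters on chromosome 19, where they arose by duplication.

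The label checks came first. LINC00525 had log2 signals of 3.67, 3.45 and 3.54 on the knockdown arrays, against 3.86, 3.74 and 3.97 on the control arrays. The groups did not overlap, and the log2 difference was -0.30 ± 0.075 (SE, limma adjusted p = 0.0372), a call lost without control replicate 1 or 3 or knockdown replicate 2 or 3 (adjusted p up to 0.111). Its signal lay within the range of 17 Tag control probe sets that match no human transcript (2.26 to 4.65), whereas every ZNF member lay above that range. The A549 and epithelial markers were present, with all 8 above the Tag range and a median of 11.8. The lowest was EPCAM at 5.295. Of these markers KRT19 rose by 0.29 (limma adjusted p = 0.00409) and KRT8 fell by 0.15 (limma adjusted p = 0.0474). Of the 11 leukocyte, endothelial and fibroblast markers measured, 2 lay above the Tag range, CD14 at 6.22 and PECAM1 at 4.74, and none changed. In bulk RNA, fewer cells of a kind and less RNA per cell cannot be told apart.

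Expressed ZNF genes changed about as often as other genes above the same cut, by small amounts, and more of them fell than rose. On the knockdown arrays 19 of the 116 members fell and 6 rose (limma, adjusted p under 0.05 over all 18132 genes), while 91 did not pass. In all, 21.6% of the members passed, against 21.5% of the 8128 other genes at or above 6.0, so the rate of change was at the background. The members were dimmer than that background, with a median mean signal of 6.67 log2 units, against 7.67 for the other genes. By direction, 16.4% of the members fell, where the background was 12.3%, and 5.17% rose, where the background was 9.23%. The median log2 change was -0.06 over the members and -0.02 over the other genes, and 79 members (68.1%) had a negative value, against 58.2% of the others. No test of the list as a whole was made, since the members were chosen with results of these data known.

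All member changes were below 1.5-fold. Their log2 changes ran from -0.41 to 0.33 with an SD of 0.14, and those of the other genes from -0.79 to 3.96 with an SD of 0.21. A range widens with the number of genes, here 116 against 8128, so the ranges are not alike in kind. Of the other genes, 93 (1.14%) passed the threshold with a change of at least 1.5-fold, against 0 of the members and 0.833% of all 18132 genes. The middle 50% of members lay between -0.13 and 0.02, and of the other genes between -0.10 and 0.06. The knockdown and control values did not overlap for 42 members that were lower (36.2%, background 29.9%) and for 12 that were higher (10.3%, background 19.2%), where over all genes the shares were 17.9% and 12.9%.

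**Figure D1:**
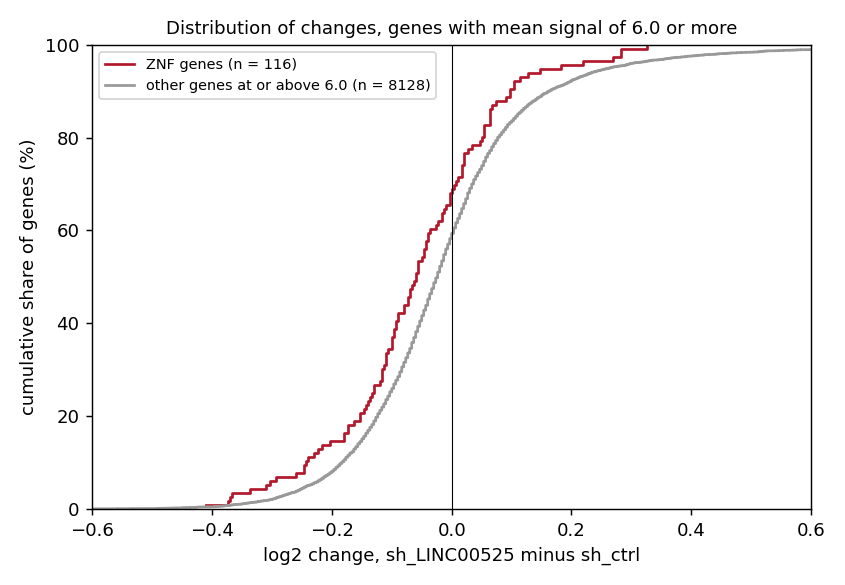
Cumulative share of genes (vertical axis, percent) by log2 change, knockdown minus control (horizontal axis), for 116 ZNF genes and 8128 other genes with a mean of 6.0 or more. The ZNF curve lies to the left of the other over most of its course, with medians of -0.06 and -0.02, and ends at 0.33, while 88 other genes lie to the right of the axis limit of 0.6 and 4 to the left of -0.6.

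The small shift is given array by array. Relative to each gene's own mean over 6 arrays, the median ZNF member stood at -0.035, -0.029 and -0.018 log2 units on the knockdown arrays, against 0.025, 0.041 and 0.033 on the control arrays. Subtracting the median of the other genes at or above 6.0 left -0.018, -0.016 and -0.013 on the knockdown arrays and 0.017, 0.026 and 0.023 on the control arrays. The groups did not overlap in either measure. The median of the other genes did not overlap between the groups either. It stood at -0.017, -0.013 and -0.005 on the knockdown arrays, against 0.008, 0.015 and 0.010 on the control arrays.

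Direction depended on what the arrays were scaled to. The bacterial hybridization controls averaged 9.50 ± 0.045 on the knockdown arrays and 9.22 ± 0.11 on the control arrays (SD, n = 3 each), and the poly-A controls were higher on the knockdown arrays by 0.14. Scaled to the hybridization controls, the median of all genes moved to -0.29, and of the members 102 fell and 0 rose. Changes reported here are thus measured against the bulk of the genes on each array. With cyclic loess in place of the deposited scaling, 17 members fell and 6 rose, while of the other genes 700 fell and 946 rose, against 997 and 750 with the deposited values. The 3′ over 5′ difference of the actin control probe sets, a sign of RNA quality, was 0.46, 0.41 and 0.41 on the knockdown arrays, against 0.42, 0.38 and 0.45 on the control arrays. The same difference for GAPDH was -0.15, -0.16 and -0.16, against -0.11, -0.14 and -0.13. The actin values overlapped between the groups and the GAPDH values did not; their part in the ZNF results was not tested.

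The falls are given by what is known of each protein, starting with KRAB zinc finger genes. How many of the 116 members carry a KRAB domain was not counted, so their number among the falls says nothing about the kind. ZNF180 fell furthest, with 5.83, 5.90 and 6.06 on the knockdown arrays, against 6.33, 6.37 and 6.32 on the control arrays. That is a log2 change of -0.41 ± 0.061 (SE, limma adjusted p = 0.00551); every knockdown array was below every control array. Its other probe set gave -0.49 (limma adjusted p = 0.00373 over all probe sets). ZNF92 was at 5.82, 5.79 and 5.90 on the knockdown arrays and at 6.17, 6.20 and 6.25 on the control arrays, a change of -0.37 ± 0.045 on its single probe set. ZNF195 was at 7.11, 7.13 and 7.15 on the knockdown arrays, against 7.38, 7.34 and 7.45 on the control arrays (log2 -0.26 ± 0.042). All 7 of its probe sets were lower on the knockdown arrays, and 6 passed, 4 of them with the suffix _x_at, which marks probes that can bind related transcripts. Without _s_at and _x_at probe sets its change was -0.15 and did not pass (adjusted p = 0.102).

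The other KRAB genes that fell were less secure. ZNF268 was at 6.56, 6.43 and 6.39 on the knockdown arrays, against 6.69, 6.78 and 6.79 on the control arrays (log2 -0.29 ± 0.055, limma adjusted p = 0.0148), a call lost without control replicate 2 or 3 or knockdown replicate 2 (adjusted p of 0.055 to 0.0611). All ZNF268 probe sets have the suffix _s_at or _x_at. ZNF302 was at 7.03, 6.99 and 7.0, against 7.23, 7.31 and 7.21 (log2 -0.24 ± 0.041). Its probe sets were mixed: a second _x_at set gave -0.22, the others -0.02 and 0.02, and with the probe sets averaged the change was -0.12 (adjusted p = 0.0619). ZNF227 was at 6.41, 6.49 and 6.39 on the knockdown arrays and at 6.58, 6.66 and 6.72 on the control arrays, a call not kept without control replicate 2 or 3, or without knockdown replicate 1 or 3 (limma adjusted p of 0.0742 to 0.0888). ZNF566, outside the naming rule, changed by -0.16 ± 0.038 and its call was kept only without knockdown replicate 3 (adjusted p otherwise up to 0.101).

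KRAB genes were also among the rises. ZNF226 had the tightest groups of the 6 that rose, with 7.22, 7.19 and 7.20 on the knockdown arrays, against 6.93, 6.93 and 6.90 on the control arrays (log2 0.28 ± 0.035, limma adjusted p = 0.00268). Its probe sets contradict each other: a second one rose by 0.19, whereas a further one, with a mean of 5.50, fell by 0.40 (limma adjusted p = 0.0163 over all probe sets), and with the probe sets averaged the change was 0.0033. ZNF558, a KRAB gene, was at 6.37, 6.35 and 6.43 on the knockdown arrays and at 6.01, 6.12 and 6.21 on the control arrays (log2 0.27 ± 0.056). It still passed without control replicate 3, but not without any 1 of the remaining arrays (adjusted p of 0.0535 to 0.0702), and its other probe sets, all under 5.0, gave -0.05 to 0.07. Neither KRAB gene rose at every one of its probe sets.

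**Figure D2:**
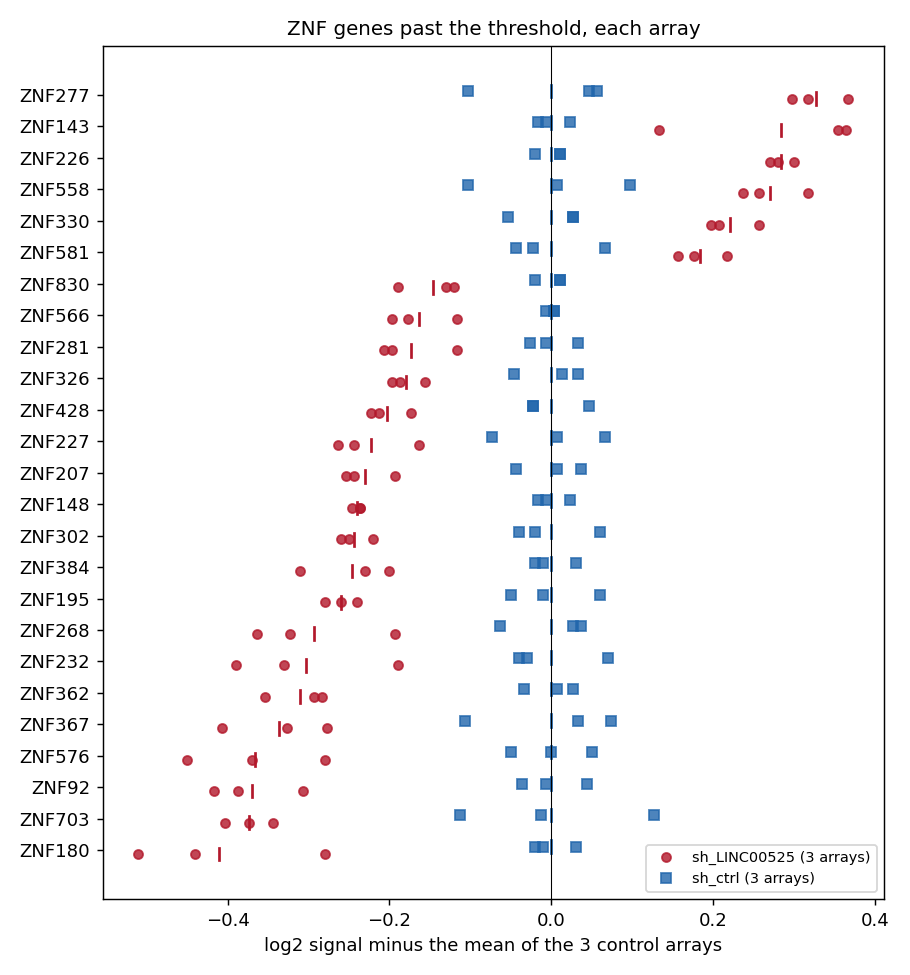
Log2 signal of the 25 ZNF genes past the threshold on each array, minus the mean of the 3 control arrays of that gene (horizontal axis), with 1 gene a row. Circles are knockdown arrays, squares control arrays and bars group means. In every row the 2 groups are separate, from ZNF277 at 0.33 to ZNF180 at -0.41.

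In 2 pairs of related factors both genes fell, and a joint change was not tested. ZNF148, also called ZBP-89, binds GC-rich promoters and is known to bind p53 and to act on CDKN1A, the p21 gene of the study's title. It was at 6.41, 6.41 and 6.40 on the knockdown arrays, against 6.63, 6.67 and 6.64 on the control arrays (log2 -0.24 ± 0.035, limma adjusted p = 0.00526). Of its 9 probe sets, 3 passed at -0.21 to -0.26, and the brighter ones also included -0.02 and -0.03, so the probe sets differ. With them averaged the change was -0.11 and did not pass (adjusted p = 0.0811). Its relative ZNF281, or ZBP-99, was at 8.85, 8.77 and 8.76 on the knockdown arrays, against 9.0, 8.96 and 8.94 on the control arrays (log2 -0.17 ± 0.042). The ZNF281 call was kept only without knockdown replicate 1; without any other array adjusted p was 0.0718 to 0.106. CDKN1A itself rose by 0.55 ± 0.055 (SE, limma adjusted p = 0.00089).

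ZNF384, a nuclear matrix factor that binds runs of A and T, and its close relative ZNF362 were the second pair. ZNF362 was at 7.41, 7.48 and 7.47 on the knockdown arrays, against 7.77, 7.79 and 7.73 on the control arrays (log2 -0.31 ± 0.039, limma adjusted p = 0.003). Its 2 further probe sets lay at 4.26 and 2.61, near background, and gave -0.07 and -0.13. ZNF384 was at 7.15, 7.26 and 7.23 on the knockdown arrays and at 7.45, 7.49 and 7.44 on the control arrays (log2 -0.25 ± 0.043). All 6 ZNF384 probe sets were negative, at -0.01 to -0.25, and only the brightest, an _s_at set, passed. Without _s_at and _x_at probe sets the change was -0.13 (adjusted p = 0.0823).

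The next falls have separate roles and form no list. ZNF207, or BuGZ, which loads the checkpoint protein BUB3 onto kinetochores, was the brightest member. It stood at 10.04, 10.10 and 10.05 on the knockdown arrays, against 10.25, 10.33 and 10.30 on the control arrays (log2 -0.23 ± 0.040, limma adjusted p = 0.0107), and its other probe sets fell by 0.25 and 0.29. ZNF367, first described as an activator in erythroid cells, was at 6.43, 6.51 and 6.56 on the knockdown arrays, against 6.73, 6.87 and 6.91 on the control arrays (log2 -0.34 ± 0.059). Its call was lost without control replicate 2 (adjusted p = 0.0501), and its other probe sets, under 4.0, gave -0.07 and 0.18, so that with probe sets averaged the change was -0.074 (adjusted p = 0.311). ZNF703, a repressor amplified in luminal breast cancer, was at 6.05, 6.02 and 6.08 on the knockdown arrays, against 6.31, 6.41 and 6.55 on the control arrays (log2 -0.37 ± 0.062).

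ZNF326, a subunit of the DBIRD complex that couples elongation by RNA polymerase II to splicing, was at 8.16, 8.19 and 8.15 on the knockdown arrays, against 8.30, 8.36 and 8.38 on the control arrays. Its log2 change was -0.18 ± 0.039, kept only without control replicate 1 (limma adjusted p otherwise up to 0.0854), yet 2 further probe sets fell by 0.29 and 0.27. ZNF830, linked to the spliceosome, changed by -0.15 ± 0.038, and its call did not survive the loss of a single array, whichever it was (adjusted p of 0.0818 to 0.12). ZNF326, ZNF830, ZNF566 and ZNF428 lie outside the rule for named genes and were named after their values were seen. The remaining falls were ZNF576 (log2 -0.37 ± 0.053, and -0.31 at a second probe set), ZNF232, which carries a SCAN domain (-0.30 ± 0.060), and ZNF428 (-0.20 ± 0.039). The ZNF232 call was lost without any control array or knockdown replicate 2 (adjusted p of 0.0505 to 0.0629), and the ZNF428 call without control replicate 1 or knockdown replicate 2 (0.0557 and 0.0573).

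Outside the KRAB genes, 4 members rose. ZNF277, whose mouse counterpart helps Polycomb proteins keep Cdkn2a silent, rose most. It was at 7.85, 7.90 and 7.83 on the knockdown arrays, against 7.43, 7.59 and 7.58 on the control arrays (log2 0.33 ± 0.053, limma adjusted p = 0.00778), and a second probe set rose by 0.32. ZNF330, a nucleolar protein, was at 8.26, 8.25 and 8.31, against 8.08, 8.08 and 8.0 (log2 0.22 ± 0.041), with all 4 of its probe sets positive at 0.16 to 0.22. Scaled to the hybridization controls, ZNF330 turned to -0.06, while ZNF277 stayed at 0.05 and lost its call.

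ZNF143 activates small nuclear RNA, selenocysteine tRNA and many housekeeping promoters. It was at 6.17, 6.39 and 6.40 on the knockdown arrays, against 6.03, 6.06 and 6.02 on the control arrays (log2 0.28 ± 0.064, limma adjusted p = 0.0283). The only probe set of ZNF143 has the suffix _s_at. Knockdown replicate 1, at 6.17, stood apart from its 2 partners. Without that array the adjusted p was 0.00497, and without any other array the call was lost (0.0806 to 0.0934). ZNF581 rose by 0.18 ± 0.044, a call kept only without control replicate 1, and turned to -0.10 when scaled to the hybridization controls.

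Several well-known ZNF genes did not pass. ZNF274, which brings the methyltransferase SETDB1 to the 3′ ends of ZNF genes, was at 6.5, 6.48 and 6.58 on the knockdown arrays, against 6.44, 6.56 and 6.57 on the control arrays, and the groups overlapped (log2 -0.0033 ± 0.050). ZNF638, which silences unintegrated retroviral DNA, had a log2 change of -0.12 ± 0.042 (adjusted p = 0.122), and the KRAB gene ZNF267 one of -0.11 ± 0.040. Both values come from _x_at probe sets. Without _s_at and _x_at probe sets both genes passed, ZNF638 at -0.30 (adjusted p = 0.0195) and ZNF267 at -0.24 (adjusted p = 0.0189). ZNF217, an oncogene that binds the CoREST complex, was at 9.17, 9.20 and 8.99 on the knockdown arrays and at 8.96, 9.07 and 9.04 on the control arrays (log2 0.10 ± 0.063). ZNF598, the ubiquitin ligase that senses collided ribosomes, had a change of 0.13 ± 0.053 (adjusted p = 0.177). The value for ZNF24, a SCAN-domain repressor, was -0.06, for ZNF292 0.06 and for ZNF462 0.10. ZNF217, ZNF598, ZNF292 and ZNF462 all turned negative when scaled to the hybridization or poly-A controls. Of the other bright members, ZNF146 was at -0.04 and ZNF706 at 0.05, the second turning to -0.23 under hybridization scaling. ZNF664 was at -0.05 on its brightest probe set, an _x_at set, but its dimmer sets with means of 7.10 and 6.88 fell by 0.53 and 0.46 (limma adjusted p = 0.00919 and adjusted p = 0.008, from the fit of every probe set). With its 4 probe sets averaged, ZNF664 changed by -0.29 and passed (adjusted p = 0.00847).

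**Figure D3:**
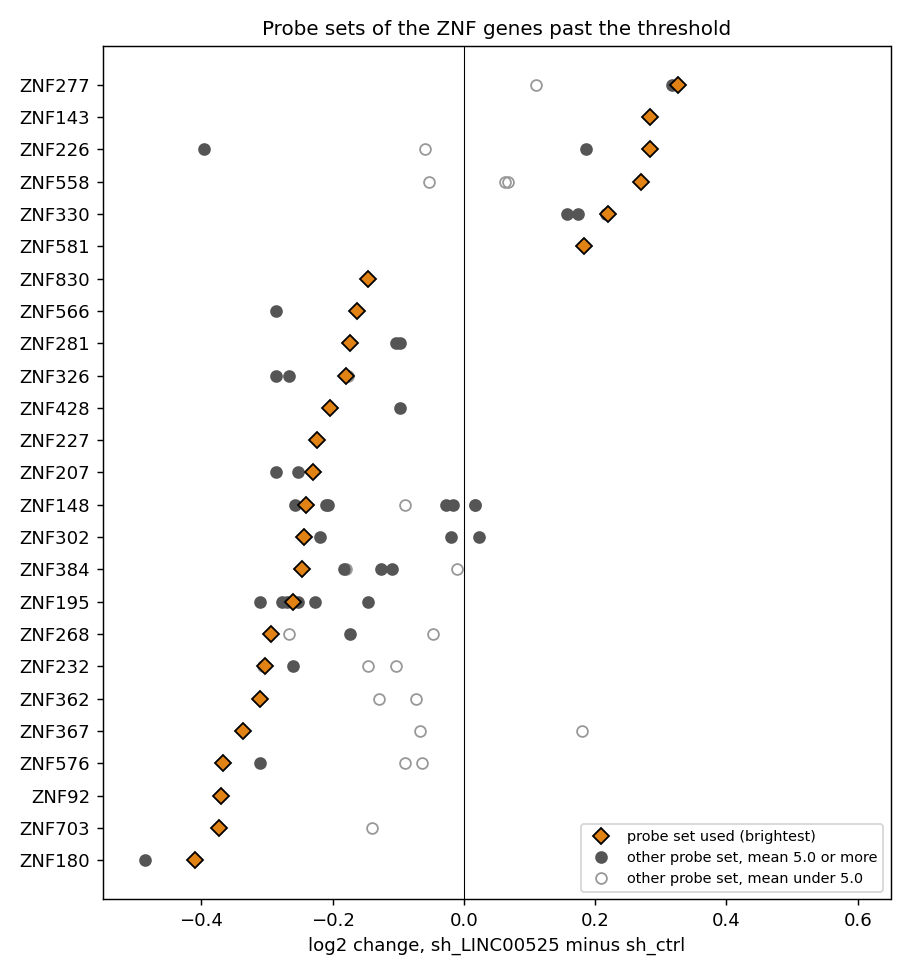
Log2 change, knockdown minus control (horizontal axis), at each probe set of the 25 ZNF genes past the threshold, with 1 gene a row. Diamonds are the probe sets used, filled circles further ones with a mean of at least 5.0 and open circles dimmer ones. ZNF195, ZNF207 and ZNF330 have all their probe sets on 1 side of 0, while ZNF226 spans 0.28 to -0.40.

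How far a call can be trusted depends on its probe sets. The 116 members had 374 probe sets in all, and 19 members had only 1. Of the 25 members past the threshold, 20 had a further probe set, and in 10 of these at least 1 of them also passed in the same direction. In 16 a further probe set had a mean of at least 5.0, and in 13 of the 16 all such sets had the sign of the one used. ZNF226 was the 1 gene with a further probe set past the threshold in the opposite direction. When each of the 6 arrays was left out in turn, 13 of the 25 calls held every time: 10 falls (ZNF180, ZNF703, ZNF92, ZNF576, ZNF362, ZNF195, ZNF384, ZNF302, ZNF148 and ZNF207) and 3 rises (ZNF277, ZNF226 and ZNF330). Of these 13, ZNF302, ZNF148 and ZNF226 did not pass with probe sets averaged, and ZNF195, ZNF384 and ZNF302 did not pass without _s_at and _x_at probe sets.

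More members fell than rose in each range of brightness. From 6.0 to 7.0 there were 70 members, of which 12 fell (17.1%) and 2 rose, against 9.20% lower and 9.44% higher among 2467 other genes of that range. From 7.0 to 8.0, 4 of 32 members fell (12.5%) and 3 rose, against 13.6% lower and 9.76% higher among 2327 others. At 8.0 or more, 3 of 14 members fell (21.4%) and 1 rose, against 13.6% lower and 8.70% higher among 3334 others. Just inside the cut lay ZNF517 at 6.0 (log2 change -0.07), ZNF777 at 6.01 (-0.18) and ZNF92 at 6.02 (-0.37). Just outside lay ZNF121 and ZNF234, both at 6.0 after rounding (-0.18 and -0.14), and ZNF627 at 5.99 (-0.05). Among the 335 ZNF genes below the cut, 17 fell (5.07%) and 1 rose (0.299%), while of 9553 other genes below it 2.16% fell and 3.03% rose. Many of these lie within the Tag range, where differences are understated.

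**Figure D4:**
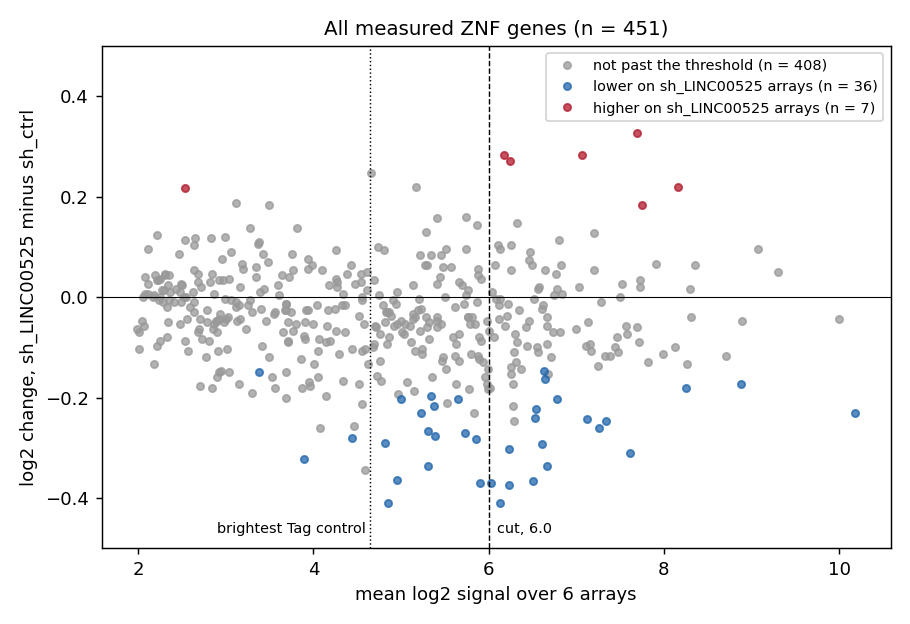
Log2 change, knockdown minus control (vertical axis), against mean log2 signal (horizontal axis) for all 451 measured ZNF genes, with the cut at 6.0 and the brightest Tag control at 4.65 as vertical lines. Blue points fell (36), red points rose (7), and those to the right of 6.0 are the 19 falls and 6 rises among the members.

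Chromosome 19 held 32 of the 116 members (27.6%), against 5.70% of the other genes at or above 6.0 and 57.0% of the ZNF genes below it. Of these 32, 6 fell and 3 rose, with a median log2 change of -0.04. Of the 84 members on other chromosomes 13 fell and 3 rose, with a median of -0.07. The 463 other genes of chromosome 19 at or above 6.0 had a median of -0.02, with 50 lower and 32 higher. The members of the chromosome therefore held a larger share of passes than its other genes (28.1% against 17.7%), in both directions, and this difference was not tested.

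On chromosome 19 a run of 20 protein-coding ZNF genes in direct succession, from ZNF283 to ZNF180, held both falls and rises. It was picked after its values were seen. Of the 20, 4 fell and 2 rose, and 4 had a mean of at least 6.0. Over all 18132 genes 6.83% fell and 5.77% rose. Over the ZNF genes below 6.0 the shares were 5.07% and 0.299%, and over the members 16.4% and 5.17%. The run was not tested against these shares. Within the run, a fall (ZNF225) and a rise (ZNF404) had signals within the Tag range and so were not above background. ZNF226, which rose by 0.28, is followed by ZNF227, which fell by 0.22. ZNF180 closes the run at -0.41. ZNF45 was at 6.09, 6.18 and 6.23 on the knockdown arrays, against 6.27, 6.56 and 6.41 on the control arrays, and did not pass (log2 -0.25 ± 0.075, limma adjusted p = 0.0757; it passed without control replicate 1, adjusted p = 0.0386). Below the cut, ZNF235 (mean 5.31) changed by -0.34 ± 0.054, ZNF225 (3.89) by -0.32 ± 0.073 and ZNF404 (2.54) by 0.22 ± 0.055. The ZNF235 call held without each array, whereas the other two were lost on leaving out most single arrays (adjusted p up to 0.0931 and 0.126). Whether probe sets of this run also bind neighbouring copies was not tested.

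**Figure D5:**
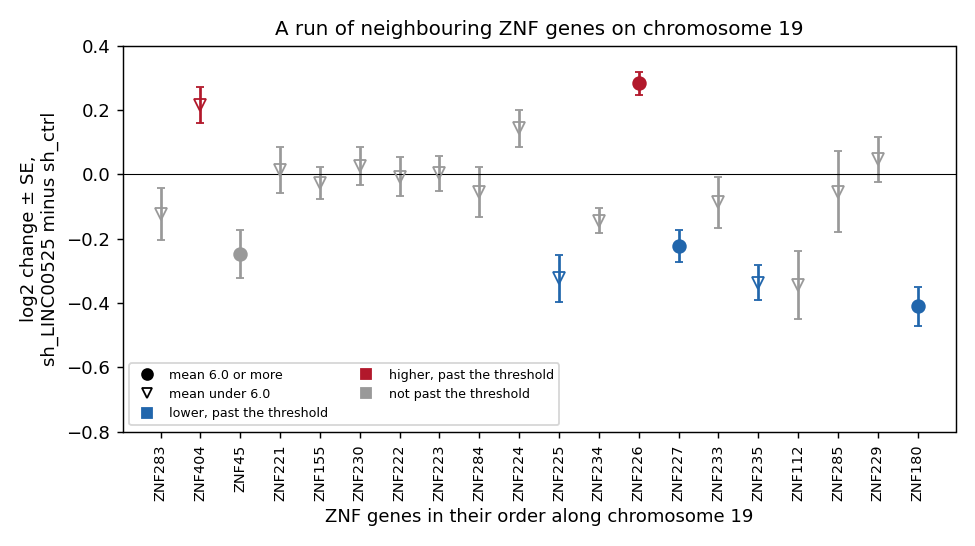
Log2 change ± SE, knockdown minus control (vertical axis), of 20 neighbouring ZNF genes in their order along chromosome 19. Filled circles have a mean of at least 6.0, open triangles less. Blue marks the 4 that fell and red the 2 that rose; ZNF226 at 0.28 stands between ZNF234 at -0.14 and ZNF227 at -0.22.

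Promoter sequence was described next. RefSeq promoters (GRCh38.p14, from 250 bases before to 50 bases after the gene start) were matched for 102 of the 116 members. They were searched on both strands for the opening of a longer element bound by ZNF143 and THAP11, whose letters are the capitals of the ZNF317 line among the sequences that follow. It occurred in 4 of 102 member promoters (3.92%), against 0.511% of 6845 promoters of other genes at or above 6.0 and 0.256% of all 27305 promoters. The letters CCGGAAGT, a site of ETS factors, occurred in 19 of 102 (18.6%), against 9.95% of the other genes and 4.44% of all. The E2F letters TTTCCCGC (1.96% of members, 2.95% of other genes, 1.66% of all) and the core of the interferon response element (1.96%, 2.64% and 3.65%) were each found in 2 members. These motifs were chosen with the results known, and a match is only a description of the letters. The median GC content was 64.5% in member promoters and 65.7% in those of the other genes.

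The 4 promoters with the ZNF143 element are shown, with the element in capitals, because its carriers include the largest fall and the largest rise; a stretch that starts GGAATT holds it on the opposite strand. Each is read 5′ to 3′ on the strand of its gene. ZNF180 (chr19:44500527-44500607, minus strand) fell, ZNF277 (chr7:112206461-112206541, plus strand) rose, and neither the KRAB gene ZNF317 (chr19:9140282-9140362, plus strand) nor the SUMO ligase gene ZNF451 (chr6:57089960-57090040, plus strand) passed, at -0.06 and 0.11.
ZNF180: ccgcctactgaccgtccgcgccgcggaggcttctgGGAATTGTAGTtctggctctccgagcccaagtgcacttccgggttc
ZNF277: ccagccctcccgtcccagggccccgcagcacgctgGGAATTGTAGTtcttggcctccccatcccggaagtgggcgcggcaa
ZNF317: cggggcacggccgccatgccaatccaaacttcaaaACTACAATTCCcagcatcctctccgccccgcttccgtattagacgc
ZNF451: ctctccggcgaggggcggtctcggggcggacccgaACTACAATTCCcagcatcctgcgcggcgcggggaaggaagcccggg
The element was thus present beside a fall, a rise and 2 genes that did not pass. ZNF367, with the E2F letters in capitals on the opposite strand, is shown as the 1 fall that carries them (chr9:96418371-96418426, minus strand).
ZNF367: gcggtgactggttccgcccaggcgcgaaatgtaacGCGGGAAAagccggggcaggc

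Among listed chromatin genes, TRIM28 included, falls far outnumbered rises. Of 42 listed genes of TRIM28-dependent repression, chromatin enzymes and histone chaperones, 40 were measured. Not all of them are partners of KRAB proteins. Of the 40, 14 fell (35%) and 1 rose (2.5%), with a median log2 change of -0.13. Over all 18132 genes 6.83% fell and 5.77% rose, with a median of -0.01. Most of the list was bright: 37 genes reached 6.0, of which 37.8% fell and 0% rose. The background of other genes at or above 6.0 was 12.3% and 9.23%. The medians of these 2 sets were -0.14 and -0.02. With cyclic loess 10 of the 40 fell and 1 rose, with a median of -0.10, where the median of all genes was 0.0022. Scaled to the hybridization or the poly-A controls, nearly the whole array moved down, so the direction there says nothing about the list; its medians were -0.41 and -0.27, where those of all genes were -0.29 and -0.15. TRIM28 was at 9.11, 9.14 and 9.27 on the knockdown arrays, against 9.42, 9.42 and 9.46 on the control arrays (log2 -0.26 ± 0.050, limma adjusted p = 0.016). That call was lost without control replicate 2 or 3 or knockdown replicate 2 (adjusted p up to 0.0607).

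CBX5, the heterochromatin protein HP1 alpha, fell by 0.57 ± 0.071, with 7 probe sets at -0.09 to -0.57. UHRF1, which reads half-methylated DNA at the fork, fell by 0.30 ± 0.049. The histone chaperones ASF1B and CHAF1A fell by 0.30 ± 0.049 and 0.27 ± 0.041. SETDB1, the methyltransferase that TRIM28 recruits, did not pass (log2 0.0033 ± 0.048). It was at 6.18, 6.08 and 6.23 on the knockdown arrays, against 6.16, 6.19 and 6.13 on the control arrays. MPHOSPH8 (-0.16), ATF7IP (-0.09), TASOR (-0.09), PPHLN1 (-0.04) and MORC2 (0.07) of the same list did not pass either. MORC3, a nuclear ATPase that binds chromatin, was the 1 rise (log2 0.29 ± 0.052, limma adjusted p = 0.0117), and it no longer passed under either control-based scaling, at 0.01 for the hybridization and 0.15 for the poly-A controls. Its other probe set, with a mean of 5.075, rose by 0.60 (limma adjusted p = 0.000528 over all probe sets). With its probe sets averaged MORC3 rose by 0.45 (limma adjusted p = 0.000724).

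Zinc finger genes of other names are set beside the members here. Pooled over ZNF symbols with a letter suffix and the ZBTB, ZSCAN, ZKSCAN and ZFP families, 37 genes reached 6.0. Of these, 3 fell (8.11%) and 4 rose (10.8%), against 12.3% and 9.23% of all 8128 non-members at or above 6.0. The median log2 change of the 37 was -0.0067 (0.02 with cyclic loess). Scaled to the hybridization controls, 30 fell and 1 rose, where 81.6% of the 8128 fell and 1.77% rose. The 20 ZBTB genes had 1 fall and 1 rise (5% each) and a median of 0.02. The difference between these families and the 116 members was not tested.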

How the data were processed

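The deposited table holds log2 intensities of 49372 probe sets, with 2 decimals and 1 column for each of 6 arrays. Per the submitters' processing notes, the values come from RMA. The version of RMA is not given in these notes. RMA corrects background, quantile-normalizes and summarizes probes, which removes changes shared by most genes and understates differences near background. No scanner files were used, so there are no detection calls. The arrays were not normalized again.

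Gene names came from the platform's annotation table, in which 44994 probe sets had 1 symbol, 1832 several and 2546 none listed. For each of 18132 genes the probe set with the highest mean over 6 arrays was used. Each of the 116 members was found by gene identifier in the GRCh38.p14 gene table, with the same symbol. The test was limma's, version 3.58.1 under R 4.3.3 (lmFit, eBayes, all 6 arrays, no covariate, 2-sided), with Benjamini-Hochberg adjustment over all genes and a threshold of 0.05. Further probe sets were read from a fit over all 49372. The procedure was tested on simulated data. Figures were drawn with matplotlib 3.10.9. The number of arrays limits the precision.

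Members, lists, motifs and rules were chosen with earlier results of these data known. Named genes were the 14 largest falls and 10 largest rises among members past the threshold (6 rose), the 5 brightest, the 3 on each side of the cut, a role list and the most changed corepressor genes. From the role list ZNF350, ZNF10, ZNF91, ZNF93, ZNF329 and ZNF335 lay below 6.0. The planned grouping by protein domains was not run; KRAB membership is background knowledge. Deviations from the group means correlated weakly between arrays of the same number (r of 0.092, 0.058 and -0.010), and they were treated as unpaired. Over genes, correlations were 0.9986 to 0.9989 within a group and 0.9959 to 0.9962 between groups, and each array counted as 1 sample.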

Additional observations from a re-analysis of the deposited data

How the results depend on the processing

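Under all alternatives run, the share of ZNF members that fell stayed above that of the other genes at or above the cut. The share that rose stayed below theirs, and the members' median stayed the lower. For the medians, several alternatives could not have come out otherwise, so they say nothing about that order. Scaling to either set of controls moves every gene by the same amount. A replicate block, a fit of genes at or above 6.0 only and a trended variance leave each log2 change as it is. The counts themselves moved, and the gaps differed in size. At a cut of 7.0 they were small: 15.2% of members and 13.6% of the other genes fell, and 8.70% and 9.13% rose. The setting with knockdown replicate 1 alone rests on 1 array and adds little. Leaving out each array in turn gave 11 to 15 falls and 3 to 4 rises among members (11 and 3 without control replicate 2, 12 falls without control replicate 3, 12 and 3 without knockdown replicate 2, 3 rises without knockdown replicate 3). The other genes then had 373 to 643 falls and 460 to 586 rises, and all genes 472 to 792 falls and 632 to 834 rises. The median change of the members was -0.072 to -0.051, that of the other genes -0.03 to -0.02, and their difference -0.047 to -0.028. With a replicate block, 14 members fell and 5 rose, while 571 of the other genes and 747 of all genes fell; the calls of ZNF227, ZNF281, ZNF326, ZNF566, ZNF830 and ZNF581, and below the cut of ZNF404, were lost, and it changed no other named call. With probe sets averaged the medians were -0.051 for members and -0.029 for other genes (difference -0.022), and ZNF146 turned to 0.02; ZNF367, ZNF232, ZNF302, ZNF148, ZNF428, ZNF226 and ZNF558 no longer passed (adjusted p of 0.0506 to 0.968), while ZNF664, ZNF777 and ZNF638 passed. Without _s_at and _x_at probe sets 94 members were left, with a median of -0.07 (difference -0.043). ZNF302 turned to 0.023, ZNF517 to 0.04 and ZNF274 to 0.017. ZNF195, ZNF384, ZNF281 and ZNF830 no longer passed, while ZNF267 and ZNF638 passed. ZNF143, ZNF268 and ZNF428 have only such probe sets and dropped out, so their calls were not checked there. With cyclic loess the medians were -0.036 for members and 0.0040 for other genes, and ZNF274 turned to 0.020. Leaving out single arrays gave ZNF274 values of -0.045 to 0.02, positive without control replicate 2 or 3 or knockdown replicate 1 or 2.

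Scaled to the hybridization controls, 102 members fell and 0 rose (median -0.34), 6636 of the other genes fell and 144 rose (median -0.30), and of all genes 15085 fell and 232 rose. ZNF558 turned to -0.011, ZNF330 to -0.061, ZNF581 to -0.10, ZNF706 to -0.23, ZNF217 to -0.18, ZNF598 to -0.15, ZNF462 to -0.18, ZNF292 to -0.22 and ZNF404 to -0.065. Scaled to the poly-A controls, 73 members fell and 1 rose (median -0.20), 4429 of the other genes fell and 331 rose (median -0.16), and of all genes 8397 fell and 497 rose. ZNF706 turned to -0.091, ZNF217 to -0.044, ZNF598 to -0.014, ZNF462 to -0.044 and ZNF292 to -0.078. Fitting only genes at or above 6.0, which tests fewer genes, gave 35 falls among members, 1908 falls and 1215 rises among the other genes and 1943 falls in all. A cut of 5.0 gave 29 falls of 209 members (13.9%, against 10.8% of the other genes). A cut of 7.0 gave 7 of 46 (15.2% against 13.6%), where the other genes' median was -0.03. With a trended and robust variance 29 members, 1777 of the other genes and 2049 of all genes fell. Knockdown replicate 1 alone, an alternative chosen after seeing the data that assumes the lone array to vary like the controls, gave 1 fall and 0 rises among members (median -0.052, difference -0.025), 42 falls and 140 rises among the other genes, and 54 falls and 202 rises in all. The cause of these moves was not tested. Updated symbols moved none of these counts or medians. With 3 arrays a group, signals near the Tag controls limit what can be measured.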
